A study of Hevea brasiliensis with 2 samples.

Results

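The unigenes described here are those annotated to auxin, gibberellin, abscisic acid, cytokinin or brassinosteroid in latex of the rubber tree (Hevea brasiliensis). A unigene is a sequence assembled from the reads without a genome. They were picked from the 6726 unigenes that the authors called different between the clones CATAS8-79 and PR107, by a hormone word in the name of the best hit in the Nr or Swissprot protein database. Of the 51192 unigenes in the comparison, 68 met this rule, 37 for auxin, 7 for gibberellin, 7 for abscisic acid, 6 for cytokinin and 11 for brassinosteroid. No row with a hormone word also named ethylene, so 0 were left out for that reason. Names were available for called unigenes alone. Hormone genes that differed less between the clones are therefore not among the 68.

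Latex is the cytoplasm of laticifers, the rubber-producing cells of the bark, and is collected by tapping. PR107 is an old selected clone, and CATAS8-79, labelled RY8-79 by the submitters, is a hybrid clone with PR107 in its pedigree. Both groups were untreated trees that had not been tapped before, given as 3 years old in the labels, whereas the study's methods give another age. Latex of 5 trees per clone was pooled and sequenced as 1 library, so no difference below has a replicate library. Intervals are exact 95% Clopper-Pearson intervals of the log2 ratio and cover counting error only. They leave out the spread between trees, pools and libraries. As PCR copies are not independent molecules, they may be too narrow for counting error as well. Where a pair of values is given without the clone names, that of CATAS8-79 comes first.

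Plant hormones act through short chains of proteins that differ between hormones. Auxin binds F-box receptors, which leads to the destruction of Aux/IAA repressors and frees the auxin response factors (ARF) that they hold. Gibberellin binds the receptor GID1, which then removes the DELLA repressors of growth. Abscisic acid, the hormone of drought and dormancy, binds PYL receptors, which block protein phosphatases 2C and so release SnRK2 kinases. Cytokinin is sensed by histidine kinases that pass phosphate through phosphotransfer proteins to response regulators. Brassinosteroids bind the receptor kinase BRI1, which works with the co-receptor BAK1 and switches on the transcription factors BZR1 and BES1. These chains are known mainly from Arabidopsis and rice, and the unigene names carry them over by sequence similarity.

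The depth, in units of 1000000 reads placed on unigenes, was 6.92 for CATAS8-79 and 6.87 for PR107. The RPKM (reads per kilobase of unigene and 1000000 counted reads) used for levels is that of the authors. Among latex markers, the unigene assigned by the study to the latex protein Hev b 7, Unigene37703, had 397 reads in CATAS8-79 and 422 in PR107. The annotated small rubber particle protein Unigene823 had an RPKM of 8.51 in CATAS8-79 and 46.1 in PR107. The other annotated row found by the latex words, the enolase Unigene3181, went the other way, with 115 reads and 57 reads, and the words for rubber elongation factor and hevein were in no annotated row. Of 17 annotated rows for photosystem, chlorophyll-binding or Rubisco small chain proteins, 9 were higher in CATAS8-79 and 8 in PR107. Their summed RPKM was 4111 in CATAS8-79 and 2328 in PR107. This sum came mainly from 8 photosystem I P700 rows, all higher in CATAS8-79 (3871 and 1468). The other 9 summed to 241 and 860, with 8 of them higher in PR107. The part of these tissue markers in the hormone differences was not tested. In bulk latex, fewer cells of a type and less RNA per cell cannot be told apart.

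The only member sequences at hand were the designed qRT-PCR primers of Unigene51625, annotated as the brassinosteroid receptor BRI1, and Unigene40609, annotated as an Aux/IAA repressor. They are shown because both unigenes were read in PR107 alone, and they mark the stretches by which the study followed them. All are 18 bases long, written 5′ to 3′ in lower case with no part marked.
Unigene51625 forward: catcttcgtttggtggta
Unigene51625 reverse: caacccaacgctcaagta
Unigene40609 forward: ttccagggtctcaatcac
Unigene40609 reverse: aacccatccatagcatca
In PR107, 55 reads lay on Unigene51625 and 24 on Unigene40609, against 0 for each in CATAS8-79. Both unigenes were among those that the study tested by qRT-PCR, in latex of other trees. It reports a pattern like that of the reads for most of those tested, and these results were not analysed here.

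Between the clones, 38 of the 68 unigenes were higher in PR107 and 30 were higher in CATAS8-79. By hormone, auxin unigenes were more often higher in CATAS8-79 (22 of 37), while 6 of 7 gibberellin, 5 of 7 abscisic acid, 5 of 6 cytokinin and 7 of 11 brassinosteroid unigenes were higher in PR107. These counts are a description, because the rule took the members from this contrast, and the difference between hormones was not tested. The majority of abscisic acid unigenes turned to CATAS8-79 with Swissprot names alone (1 against 2) and at a 4-fold threshold (0 against 2). Cytokinin with Swissprot names alone (1 against 1) and brassinosteroid at a 4-fold threshold (2 against 2) were evenly split. With Nr names alone, only 1 gibberellin unigene was left, higher in PR107. A call here needed an FDR of at most 0.001 in Fisher's exact test (2-sided, on reads out of the library total) and an absolute log2 ratio of at least 1. Of the 68 members 67 met it, as the rule made nearly certain. Of all 51192 unigenes, 12.8% met it, 7.14% with the higher value in PR107 and 5.7% with the higher value in CATAS8-79, and 35.4% reached the fold without regard to the FDR. No replicate spread enters that call. With a biological coefficient of variation of 0.2 put into the exact test of edgeR, 17 members and 2.96% of all unigenes were left, and with 0.4 it was 3 members (Unigene46789, Unigene9278 and Unigene39652) and 0.371%.

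**Figure D1:**
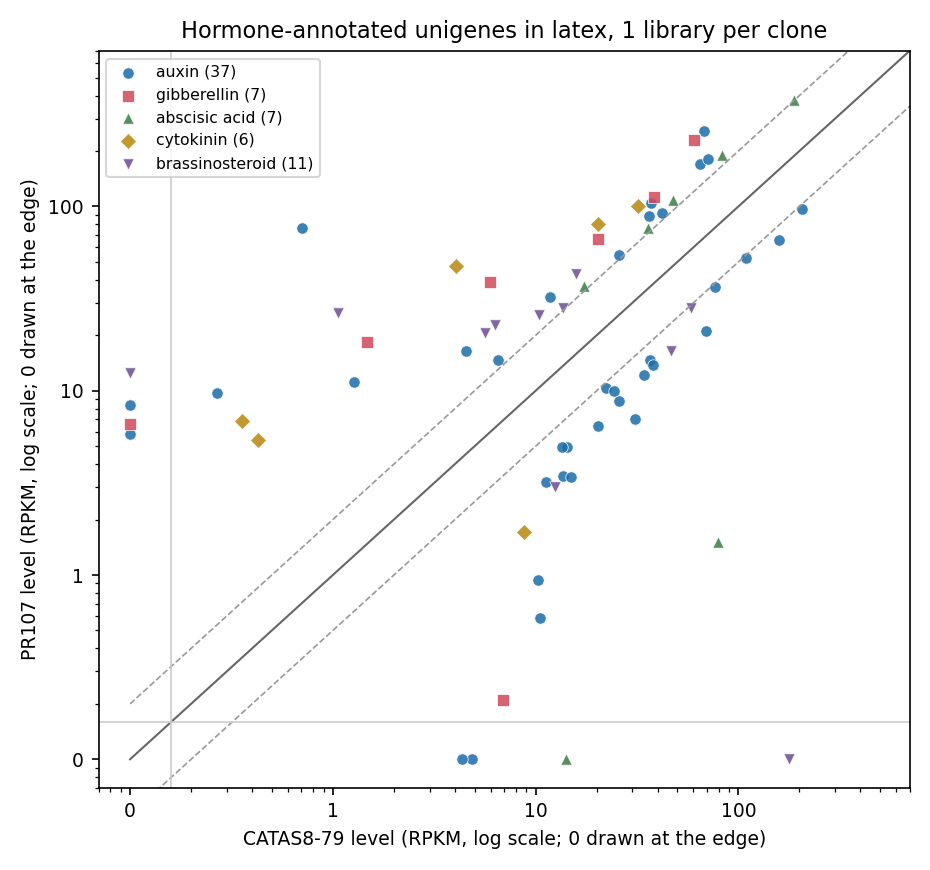
RPKM of each of the 68 unigenes in CATAS8-79 (x axis) and PR107 (y axis), both on log scales with 0 drawn at the edge, with 1 point per unigene and a colour and shape per hormone. The solid line marks equal levels and the dashed lines a 2-fold difference, and 4 unigenes lie at 0 in each clone.

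The rule's fold threshold ran close to a few members. Unigene21018 (log2 ratio 1.01), Unigene24169 (1.05) and Unigene43406 (-1.06) were nearest to it on the inside, and the nearest outside, for which no hormone name is known here, were Unigene23835 (0.9998) and Unigene2010 (-0.9998). Unigene24169 was also the member that missed the FDR threshold here.

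The 68 unigenes had a median length of 544 bp (range 204 to 1290), against 431.5 bp for all called unigenes and 364 bp for all unigenes. Their median read number over both libraries was 127, beside 123 for called unigenes and 80 for all. The names rest on other plants. The best Nr hit was an Arabidopsis protein for 24 members and a Populus protein for 9. None was from Hevea, and 4 were from Ricinus, Manihot or Jatropha, which belong to the same plant family. The hormone word stood in both databases for 19 members, in Nr alone for 23 and in Swissprot alone for 26. Of the auxin unigenes 17 were named by both databases, of the gibberellin and cytokinin unigenes 0.

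The Aux/IAA repressors, which hold auxin response genes silent, numbered 10, and 7 of them were higher in CATAS8-79. Unigene1424, with Swissprot name auxin-induced protein 22D, was the most read auxin member and went the other way. It had 351 reads in CATAS8-79 and 1317 in PR107, an RPKM of 68.0 and 257 (log2 ratio 1.92, interval 1.75 to 2.09). Unigene24617 (IAA11) was read 1042 and 429 times (log2 ratio -1.27, interval -1.43 to -1.11). Unigene21390 (IAA26) had 741 and 348 reads, and its RPKM of 206 in CATAS8-79 was the highest level of any member in that clone. These 3 unigenes carried most Aux/IAA reads. The family sum was close to even, with 2481 reads in CATAS8-79 and 2262 in PR107 (log2 ratio -0.12, interval -0.21 to -0.04). Without Unigene1424 the log2 ratio of the sum was -1.16.

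The less abundant Aux/IAA unigenes repeated the split. Both unigenes named IAA29 were higher in CATAS8-79. Unigene14015 had 78 reads in CATAS8-79 against 22 in PR107. Unigene40046 was read 16 and 0 times, 5.29-fold higher in CATAS8-79 with a floor of 3 reads in place of 0. The unigenes named IAA27, Unigene7387 (143 and 49 reads) and Unigene34521 (55 and 19), had nearly equal log2 ratios of -1.53 and -1.52. Unigene32841, a second IAA11 unigene, had 36 reads in CATAS8-79 and 2 in PR107 (log2 ratio -4.16, interval -7.26 to -2.20). On the PR107 side, Unigene41131 (IAA7) had 19 and 52 reads, and Unigene40609 (IAA9) was 8.06-fold higher with 3 reads in place of 0. Unigene34521 and Unigene41131 share a best Nr text and lay on opposite sides.

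The 13 ARF unigenes, the transcription factors that bind auxin response genes, were also divided, with 8 higher in CATAS8-79 and 5 higher in PR107. Unigene21720, named ARF2 in Swissprot, was the most read, with 249 reads in CATAS8-79 and 650 in PR107 (log2 ratio 1.40, interval 1.18 to 1.61). Unigene24246 (ARF17) had 231 and 504 reads. On the CATAS8-79 side, Unigene3527, named ARF5, an activator that patterns vascular tissue in Arabidopsis, had 82 reads in CATAS8-79 and 26 in PR107 (log2 ratio -1.65, interval -2.34 to -0.99). Unigene27574 (ARF7) had 96 and 39 reads, and Unigene29519, a second ARF2 unigene, 128 and 60. Unigene24069 and Unigene38983, which share the Nr text of a putative ARF of Ricinus, were read 72 and 33 times and 22 and 2 times. Unigene18330 (ARF9) was higher in PR107, with 28 and 63 reads. Summed, the ARF unigenes had 1595 reads in CATAS8-79 against 1930 in PR107. The log2 ratio of this sum, 0.29, turned to -0.062 without Unigene21720.

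Among the ARF unigenes, 5 share the Lotus protein ARF3b as best Nr hit and went in opposite directions. Of the longer pair, both named ARF15 in Swissprot, Unigene32094 (1149 bp) had 303 reads in CATAS8-79 and 109 in PR107. Unigene44377 (1080 bp) had 2 and 72 (log2 ratio 5.18, interval 3.28 to 8.25). The other members are named ARF3, a factor of leaf and flower polarity in Arabidopsis. Unigene15490 (155 and 55 reads) and Unigene20697 (93 and 37) were higher in CATAS8-79, and Unigene15423 (134 and 280) was higher in PR107. Over the 5 unigenes together, 687 reads were counted in CATAS8-79 and 553 in PR107 (log2 ratio -0.30, interval -0.47 to -0.14). How reads were divided among such close copies is uncertain.

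All 3 unigenes named for auxin transport were higher in CATAS8-79. Unigene23761, annotated as an auxin efflux carrier family protein, had 180 reads in CATAS8-79 and 41 in PR107 (log2 ratio -2.12, interval -2.65 to -1.63). Its Swissprot hit is an uncharacterized yeast transporter. Unigene32038 has the same Nr text and was read 15 and 0 times, 4.96-fold higher in CATAS8-79 with 3 reads in place of 0. Unigene30685, whose Nr name is auxin transport protein and whose Swissprot name is a ubiquitin ligase, had 71 and 18 reads. Summed RPKM of the transport unigenes was 48.6 in CATAS8-79 and 10.5 in PR107.

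The F-box and SAUR unigenes were all higher in CATAS8-79. Unigene29023, named for the auxin receptor AFB3, had 156 reads in CATAS8-79 and 74 in PR107 (log2 ratio -1.06, interval -1.48 to -0.66), on a unigene of 206 bp. Of the SAUR proteins, small proteins made soon after auxin arrives, Unigene18546 had 618 and 188 reads (log2 ratio -1.71, interval -1.95 to -1.47). Unigene27589, named ARG7, had 47 and 17 reads.

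**Figure D2:**
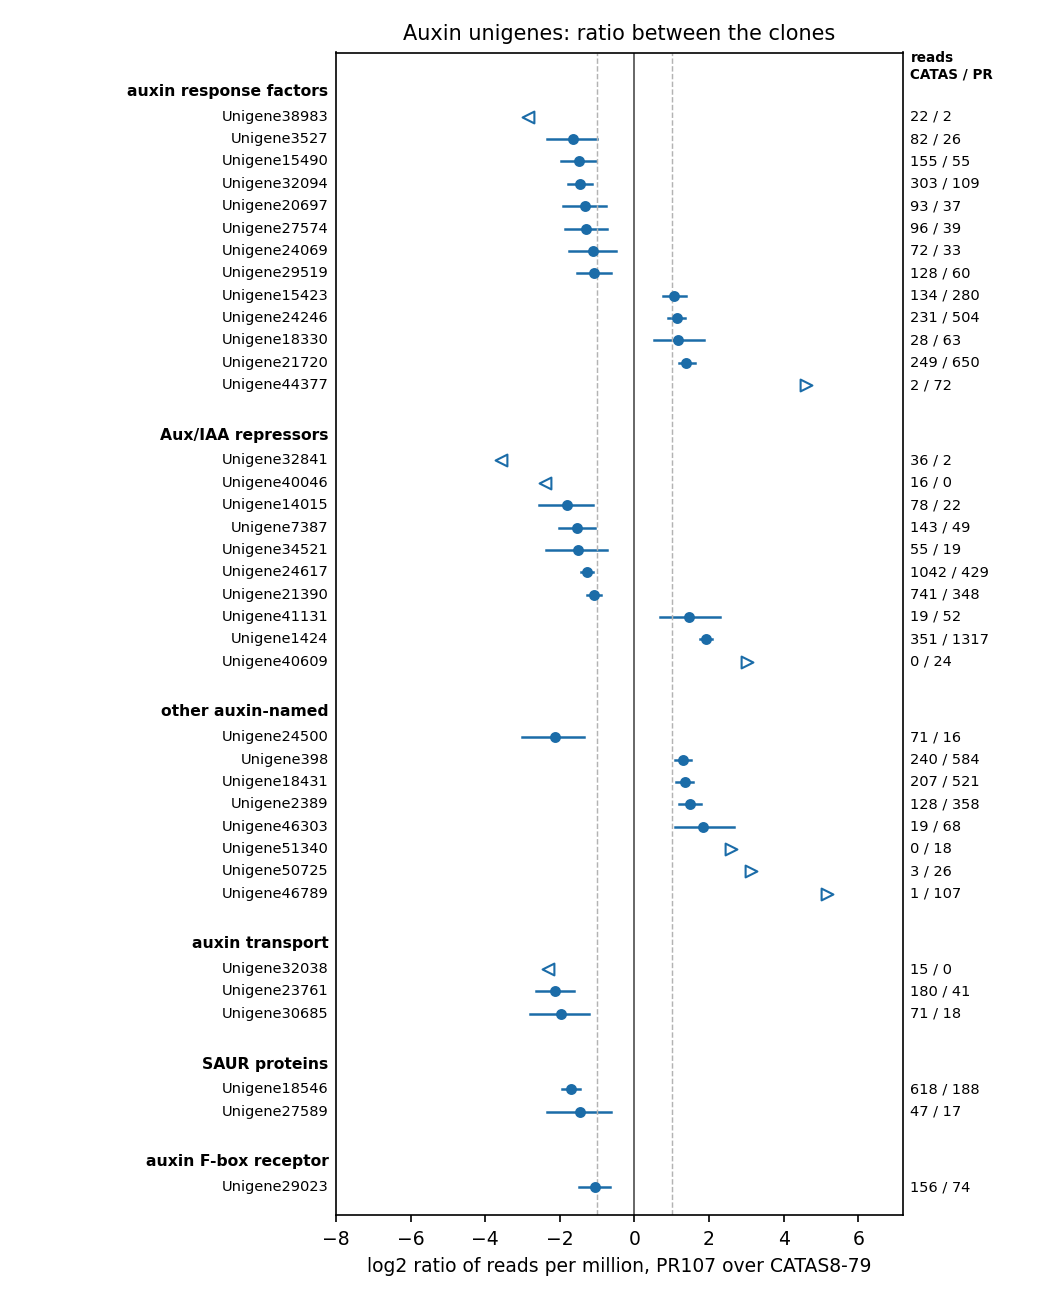
Log2 ratio of reads per 1000000, PR107 over CATAS8-79, of the 37 auxin unigenes by role family, with the reads in CATAS8-79 and PR107 at the right. Filled points have exact 95% counting intervals, open triangles are values computed with 3 reads in place of the lower count, and dashed lines mark a 2-fold difference. All transport, SAUR and F-box unigenes lie left of 0.

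The remaining 8 auxin-named unigenes fall in none of the families above, and 7 of them were higher in PR107. Unigene398, named AIR12 after auxin-induced root cultures, had 240 reads in CATAS8-79 and 584 in PR107 (log2 ratio 1.29, interval 1.07 to 1.52). Unigene18431, similar to an auxin-responsive protein of grape, had 207 and 521 reads, and Unigene50725, with the same Nr text, had 3 and 26. Unigenes named PCNT115 belong to the aldo/keto reductases. Of these, Unigene2389 (128 and 358 reads) and Unigene46303 (19 and 68) were higher in PR107. Unigene24500 (71 and 16), which shares its rice best hit with Unigene46303, was higher in CATAS8-79. Both unigenes named 5NG4, relatives of nodulin MtN21 transporters, had at most 1 read in CATAS8-79. Unigene46789 had 1 and 107 reads (log2 ratio 6.75, interval 4.24 to 12.07). Unigene51340 had 0 and 18 reads, or 6.05-fold more in PR107 with 3 reads in place of 0.

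Summed over all auxin unigenes, 5832 reads were counted in CATAS8-79 and 6228 in PR107 (log2 ratio 0.11, interval 0.05 to 0.16). The sum and the members differ in sign, as the median member had a log2 ratio of -1.11. The size of that median is set in part by the rule, which took no member with an absolute log2 ratio under 1. Without Unigene1424 the sum had a log2 ratio of -0.15.

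Other called unigenes of auxin metabolism were few. Unigene5788, named for GH3.5, an enzyme that couples auxin to amino acids and so lowers free auxin, had 1202 reads in CATAS8-79 and 3258 in PR107 (log2 ratio 1.45, interval 1.35 to 1.55). The IAA-amino acid hydrolases, which release auxin from such conjugates, went both ways. Unigene370 (477 and 1118 reads) and Unigene50970 (15 and 55) were higher in PR107, and Unigene39548 (92 and 13) and Unigene26451 (106 and 48) were higher in CATAS8-79. Of these 5 unigenes of auxin metabolism, 3 were higher in PR107. The remaining called unigene found by auxin words, Unigene46259, is named as an NPH3 family protein and had 6 and 34 reads.

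The gibberellin unigenes were dominated by the receptor family. The 3 unigenes with Swissprot names of the GID1-like type were all higher in PR107, with a sum of 432 reads in CATAS8-79 and 1715 in PR107 (log2 ratio 2.0, interval 1.85 to 2.16). Their Nr hits are carboxylesterases or a hydrolase, the enzyme family from which the receptor derives, so whether they bind gibberellin cannot be read from the names. Unigene7495 had 287 and 1076 reads (log2 ratio 1.92, interval 1.73 to 2.11), and an RPKM in PR107 of 229, above that of 97.3% of all unigenes. Unigene9314 differed most, with 52 and 337 reads (log2 ratio 2.71, interval 2.28 to 3.16), and Unigene15177 had 93 and 302.

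Both unigenes with Swissprot names of gibberellin-regulated proteins of the GASA type, small cysteine-rich proteins, were higher in PR107 as well. Their Nr names are cold-regulated LTCOR12 for Unigene12390 and gonadotropin beta chain for Unigene45184. Unigene12390 had 209 reads in CATAS8-79 and 610 in PR107 (log2 ratio 1.56, interval 1.33 to 1.79). Unigene45184 had 3 and 37 reads (log2 ratio 3.64, interval 1.98 to 5.98). Unigene50040, named gibberellin 7-oxidase in Nr and hyoscyamine 6-dioxygenase in Swissprot, was read 0 and 13 times. With 3 reads in place of 0, it was 4.37-fold higher in PR107. The exception was Unigene34187, a GRAS transcription factor named as chitin-inducible and gibberellin-responsive, with 33 reads in CATAS8-79 and 1 in PR107 (log2 ratio -5.03, interval -10.38 to -2.45).

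Of 8 further called unigenes found by gibberellin pathway words, 6 were higher in PR107. The DELLA repressors, targets of GID1, were divided. Unigene79, the longest (2247 bp), had 571 reads in CATAS8-79 and 280 in PR107, whereas Unigene4563 (211 and 473) and Unigene26987 (40 and 138) were higher in PR107. Unigenes named ent-kaurene synthase, an early enzyme of gibberellin synthesis, were both higher in PR107, with 18 and 66 reads for Unigene51516 and 14 and 52 for Unigene51609. Unigene28026 matched through the name SLY1 but is a SEC1 family transport protein. It had 126 and 47 reads.

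The abscisic acid unigenes held the largest difference above the floor of 3 reads. Unigene9278, named for the receptor PYL12 in Swissprot and as a Bet v I allergen family protein in Nr, had 422 reads in CATAS8-79 and 8 in PR107. Its RPKM was 79.1 and 1.51 (log2 ratio -5.71, interval -6.93 to -4.72). Unigene39625, named PYL4 by both databases, was read 37 and 0 times, 12.2-fold higher in CATAS8-79 with 3 reads in place of 0. PYL receptors and Bet v I allergens share a protein fold, and the Nr name of Unigene9278 does not say whether it is a PYL protein.

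The other 5 abscisic acid unigenes were higher in PR107 by close to 2-fold. Unigene21018 and Unigene9336 carry the Nr name of an abscisic acid receptor, a G protein coupled receptor, a role that has been disputed in Arabidopsis, while Swissprot calls both LanC-like. Unigene21018 was the most read of the 68, with 739 reads in CATAS8-79 and 1476 in PR107 (log2 ratio 1.01, interval 0.88 to 1.14). Its RPKM of 188 and 379 lay above that of 96.2% and 99.1% of all unigenes. Under TMM and median-ratio scaling its log2 ratio was 0.96 and 0.98, below the fold threshold. Unigene9336 had 223 and 508 reads.

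The transcription factors that bind abscisic acid response elements had smaller levels. Unigene16714 had 83 reads in CATAS8-79 and 188 in PR107 (log2 ratio 1.19, interval 0.81 to 1.58). Unigene25214, named ABI5-like and ripening-related, had 64 and 135 (log2 ratio 1.09, interval 0.65 to 1.54). Unigene18025, an HVA22-like protein, a family first known from abscisic acid-treated barley, had 98 and 207. Over all 7 abscisic acid unigenes the reads were 1666 and 2522 (log2 ratio 0.61, interval 0.52 to 0.70), and 0.19 without Unigene21018.

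Elsewhere in the abscisic acid pathway, 14 called unigenes matched the pathway words, 8 higher in CATAS8-79 and 6 higher in PR107. Of the 9 named protein phosphatase 2C, a family of which PYL receptors inhibit 1 branch, 5 were higher in PR107. Unigene12224 had 494 reads in CATAS8-79 against 1105 in PR107, while Unigene48289, with the same Nr text, had 746 and 331 reads. Unigene5293 has that text as well and had 118 and 322 reads. Unigene18691, named AHG1 after a phosphatase of abscisic acid response in seeds, had 55 and 166. Both SnRK2-type kinases were higher in CATAS8-79, with 224 and 87 reads for Unigene701 (SAPK1) and 115 and 42 for Unigene39463 (SAPK2). The synthesis enzymes were few and divided. Unigene40338, named zeaxanthin epoxidase, had 43 and 12 reads, and Unigene27121, named xanthoxin dehydrogenase, had 118 and 240.

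**Figure D3:**
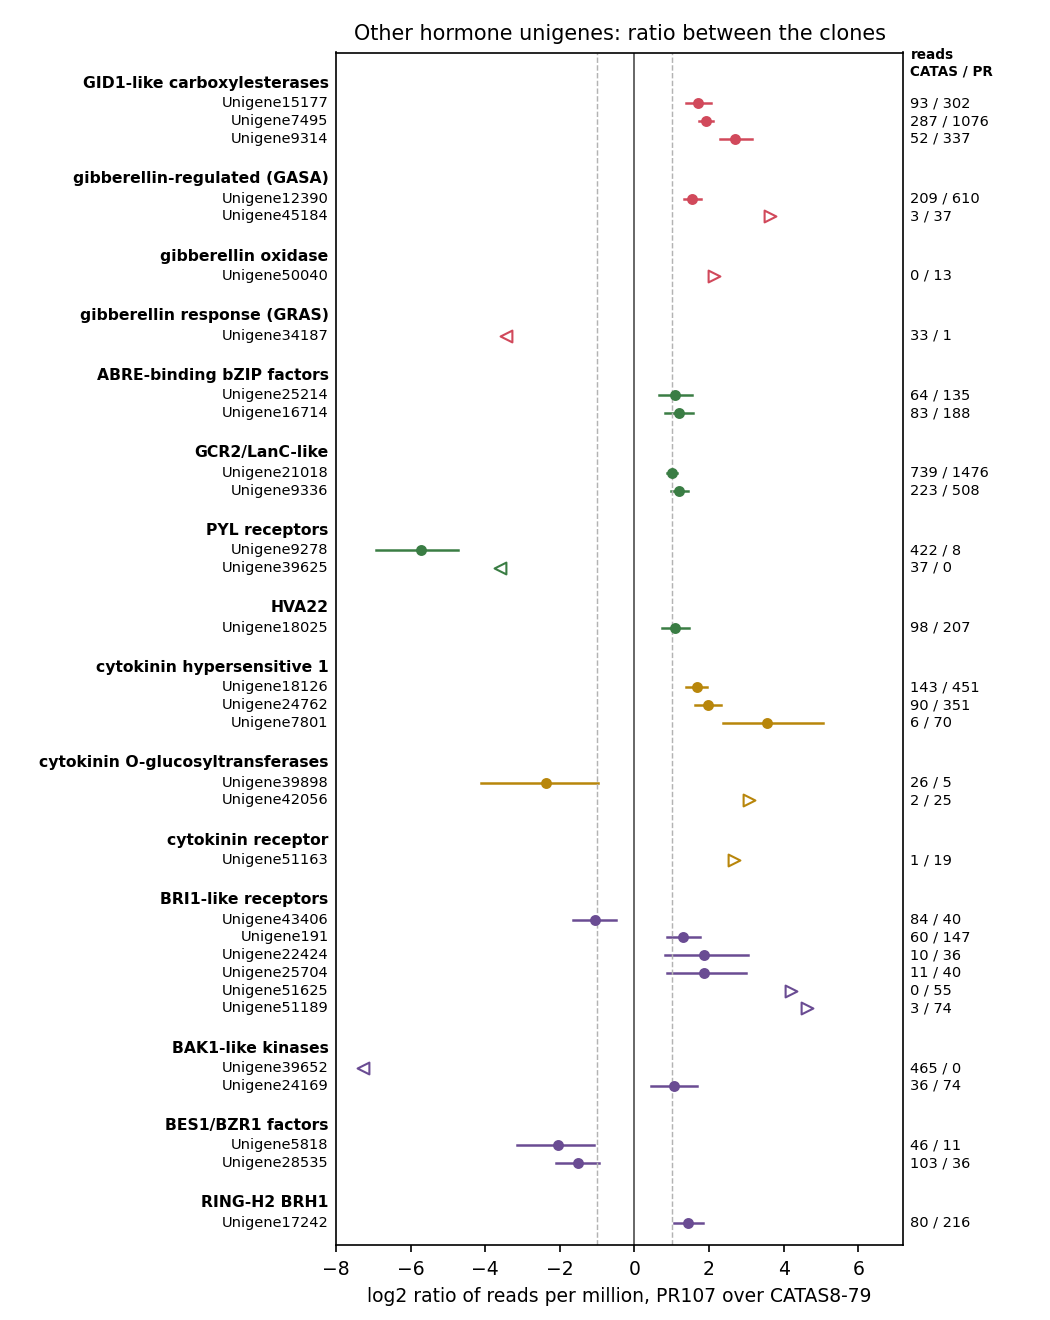
Log2 ratio of reads per 1000000, PR107 over CATAS8-79, of the 31 gibberellin, abscisic acid, cytokinin and brassinosteroid unigenes by role family, with the reads in CATAS8-79 and PR107 at the right. Filled points have exact 95% counting intervals, open triangles are values computed with 3 reads in place of the lower count, and dashed lines mark a 2-fold difference. The GID1-like unigenes lie right of 0 and both PYL unigenes left of -3.

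Of the 6 cytokinin unigenes, 5 were higher in PR107, and 3 of these share the Nr name cytokinin hypersensitive 1, an Arabidopsis locus that encodes a subunit of the general transcription factor TFIID. Unigene24762, which Swissprot also calls a TFIID subunit, had 90 reads in CATAS8-79 and 351 in PR107 (log2 ratio 1.97, interval 1.64 to 2.33). Unigene18126 had 143 and 451 reads, but its Swissprot name is a vacuolar sorting protein. Unigene7801, of 215 bp and with no Swissprot name, had 6 and 70. Together the 3 unigenes had 239 and 872 reads, most of the cytokinin reads.

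Among the members, those closer to the hormone itself had few reads. Outside the rule, the histidine kinase Unigene7397, described below, had more, with 206 reads in CATAS8-79 and 59 in PR107. Unigene51163, named as a histidine kinase cytokinin receptor, had 1 read in CATAS8-79 and 19 in PR107 (log2 ratio 4.26, interval 1.61 to 9.64). The cytokinin O-glucosyltransferases, whose products are a storage form of the hormone, lay on opposite sides. Unigene39898 had 26 and 5 reads, and Unigene42056 had 2 and 25, so their sum of 28 and 30 reads showed no difference beyond its counting interval (log2 ratio 0.11, interval -0.68 to 0.91). Both have other glycosyltransferases as best Nr hits.

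Of 9 further called unigenes found by cytokinin words, 7 were higher in CATAS8-79. They hold relay proteins, synthesis enzymes and clock-related APRR proteins. Unigene26695, named as a histidine-containing phosphotransfer protein, had 206 reads in CATAS8-79 and 20 in PR107 (log2 ratio -3.35, interval -4.09 to -2.69). Unigene7397, with the histidine kinase HK3 of birch as best hit, had 206 and 59. The type-A response regulators, which damp the response, followed with 169 and 63 reads for Unigene3143 (ARR9) and 55 and 12 for Unigene9284 (ARR8). Unigene24024 is named ARR18 in Swissprot, while its best Nr hit is the potato protein StPCL1, and had 182 and 69. These 5 further relay unigenes were all higher in CATAS8-79, with 818 and 223 reads in all (log2 ratio -1.86, interval -2.08 to -1.65). Without Unigene24024 the reads were 636 and 154. This sum includes the histidine kinase Unigene7397 but not Unigene51163, named as a histidine kinase cytokinin receptor and described above. Unigene51163 was higher in PR107, with 1 and 19 reads. The APRR unigenes given below are not in this sum either. Of the tRNA isopentenyltransferases, which make a minor kind of cytokinin, Unigene27754 had 252 and 90 reads and Unigene51751 had 55 and 131. The APRR unigenes lay on opposite sides, with 545 and 165 reads for Unigene23871 (APRR5) and 140 and 296 for Unigene19133 (APRR7).

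For brassinosteroids, 5 of the 6 BRI1-like receptor unigenes were higher in PR107. Unigene191, the longest of them (833 bp), had 60 reads in CATAS8-79 and 147 in PR107 (log2 ratio 1.30, interval 0.86 to 1.76). Unigene22424 (10 and 36) and Unigene25704 (11 and 40), named SR160 after the tomato form of the receptor, had log2 ratios of 1.86 and 1.87. Unigene51189 had 3 and 74 reads (log2 ratio 4.64, interval 3.03 to 6.95). Unigene51625, whose primers are given above, was 18.5-fold higher in PR107 with 3 reads in place of 0. Unigene43406 (84 and 40 reads, 208 bp) was the exception. The family had 168 and 392 reads in all (log2 ratio 1.23, interval 0.97 to 1.5), and an RPKM of 81.7 and 135.9. Outside the rule, 2 more called unigenes are named for BRL1, a close relative of BRI1 in Arabidopsis. Unigene12569 had 259 and 99 reads, more than any of the 6, and Unigene24215 had 36 and 92. With both added, the sum was 463 and 583 reads (log2 ratio 0.34, interval 0.16 to 0.52). Many receptor kinases resemble BRI1 in their repeats or kinase part, and the best Nr hit of Unigene51625 is given only as a leucine-rich repeat.

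The co-receptor unigenes went apart. Unigene39652, named BAK1 in Swissprot with an unnamed rice protein as best Nr hit, had 465 reads in CATAS8-79 and 0 in PR107. This is 154-fold higher in CATAS8-79 when 3 reads stand in place of 0, and the largest difference of the 68. The counting interval of its log2 ratio ends at -6.96. Its RPKM of 177 in CATAS8-79 lay above that of 95.8% of all unigenes, on 380 bp. Unigene24169, named BAK1 in Swissprot as well and as a BRI1-associated kinase in Nr, had 36 and 74 reads (log2 ratio 1.05, interval 0.46 to 1.67). Of 5 further called unigenes named somatic embryogenesis receptor kinase, the family that BAK1 belongs to, 4 were higher in PR107. Unigene14005, with the most reads, was the other, with 539 and 251, and Unigene44319 had 13 and 100.

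At the end of the chain, both unigenes named for the BES1/BZR1 factors were higher in CATAS8-79. Unigene28535 had 103 reads in CATAS8-79 and 36 in PR107 (log2 ratio -1.51, interval -2.10 to -0.95), and Unigene5818 had 46 and 11 (log2 ratio -2.05, interval -3.15 to -1.08). The called unigenes named BRASSINAZOLE-RESISTANT 1, the BZR1 factor itself, were on the same side, with 326 and 127 reads for Unigene15409 and 149 and 49 for Unigene3072. Unigene17242, named after the RING-H2 protein BRH1, a ubiquitin ligase whose transcript responds to the hormone in Arabidopsis, had 80 and 216. Of the synthesis enzymes, both unigenes named for the steroid reductase DET2 were higher in PR107, with 260 and 603 reads for Unigene24654 and 11 and 37 for Unigene50975.

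Summed over the 11 brassinosteroid unigenes, 898 reads were counted in CATAS8-79 and 729 in PR107 (log2 ratio -0.29, interval -0.43 to -0.15). This sum rests on Unigene39652 and was 0.76 without it.

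**Figure D4:**
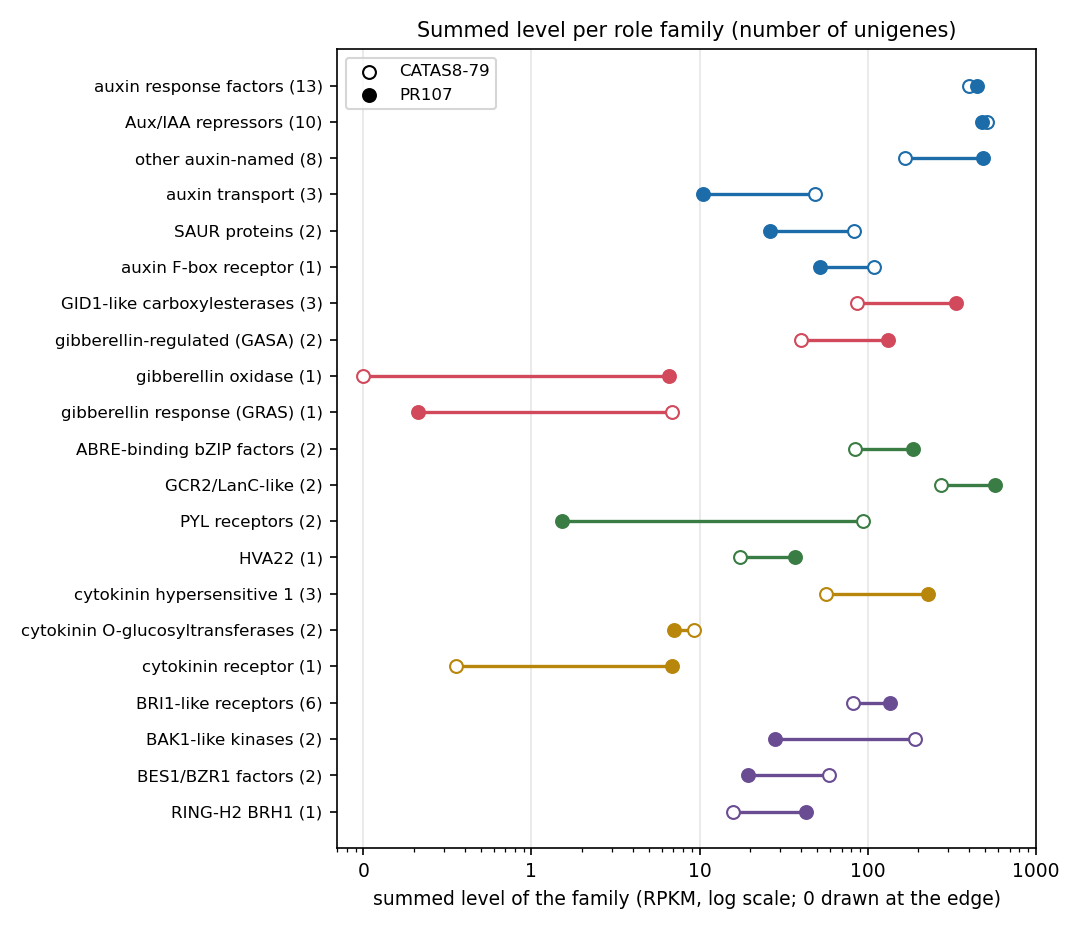
Summed RPKM of each role family in CATAS8-79 (open points) and PR107 (filled points) on a log scale with 0 drawn at the edge, with the number of unigenes in brackets. The PYL receptors, at 93.3 and 1.51, are the family of more than 1 unigene whose levels lie farthest apart, and the Aux/IAA repressors, at 510.2 and 478.4, are among the closest.

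Unigenes with 3 or fewer reads in one clone made up 18 of the 68 (26.5%), beside 19.7% of all called unigenes and 18.8% of all unigenes. Those that both had such a count and were called here made up 2.44% of all 51192 unigenes. In CATAS8-79 it was 11 members, and all 11 have unigene numbers of 40000 or higher. In PR107 it was 7 members, and 6 of them are numbered from 30000 to 39999. The number is the running number that the authors gave a unigene. All 10 members numbered 30000 to 39999 were higher in CATAS8-79, and 13 of the 15 numbered 40000 or higher were higher in PR107. The same held more widely, since 20.9% of all called unigenes numbered 30000 to 39999 were higher in PR107 and 83.0% of those numbered 40000 or higher. The part of this numbering in these differences was not tested. Below 40000, 25 of 53 members were higher in PR107, for auxin 8 of 29, for gibberellin 4 of 5, for abscisic acid 5 of 7, for cytokinin 3 of 4 and for brassinosteroid 5 of 8.

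**Figure D5:**
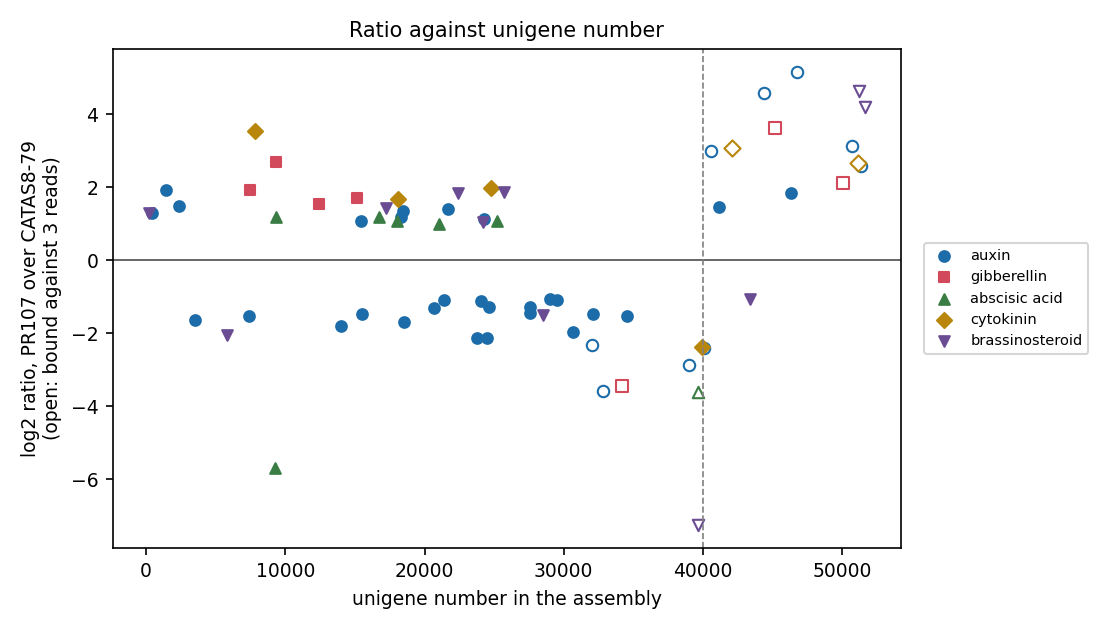
Log2 ratio of reads per 1000000, PR107 over CATAS8-79, of the 68 unigenes against their number in the assembly, with a colour and shape per hormone. Open points are computed with 3 reads in place of the lower count, the dashed line stands at 40000, and no member between 30000 and 39999 lies above 0.

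Pieces or copies of one gene may be counted more than once. The 68 unigenes have 48 different best Nr texts, and 33 of them share a text with another member. Of the 13 shared texts, 5 had members on both sides. They are the ARF3b, Populus Aux/IAA, Lycoris transcription factor, auxin-responsive family protein and rice aldo/keto reductase texts, all of them among the auxin unigenes. A shared text need not mean 1 gene. In Swissprot the auxin-responsive family protein text covers AIR12 and ARG7. The Populus text covers 22D, IAA11 and IAA9, and the Lycoris text IAA27 and IAA7. With the reads of unigenes that share a text summed, the auxin-responsive family protein text had 287 reads in CATAS8-79 against 601 in PR107. The Populus Aux/IAA text had 1429 and 1772. The Lycoris and rice texts came out even, with 74 and 71 and with 90 and 84 reads.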

How the data were processed

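The authors made 1 library per clone from pooled latex, assembled paired-end reads de novo with SOAPdenovo (k-mer 29) and placed the reads on the unigenes. They deposited raw read counts per unigene and RPKM values, which differ by at most 5.0e-05 from values recomputed from the counts, the length in bp and the total, although the paper calls the unit TPM. The deposited log2 ratio, p-value and FDR columns hold the authors' own comparison and were not used, beyond taking the rows of their called table. The submitters' processing notes name the build mm9, a mouse genome, which was not used here, so unigenes have no genome position.

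From the counts, ratios of reads per 1000000 were taken as PR107 over CATAS8-79. Other scalings were TMM (edgeR 4.0.16) and median-ratio (DESeq2 1.42.0) factors in R 4.3.3. For a count of 0 the fold was computed with 3 reads in its place, which is not a confidence limit. For 1 to 3 reads the ratio is given with its interval. Calls were made by Fisher's exact test (scipy 1.17.1). It was tried on simulated counts with large changes planted in well-read unigenes and no biological spread. Smaller differences and that spread were therefore not covered. The edgeR quasi-likelihood fit needs replicates and was not possible, no replicate could be left out, and the call compares libraries, not clones. The members and lists were chosen with earlier results of these data known. Named were the unigenes the study names and every member of a family of 6 or fewer. Members that share a best Nr text on opposite sides were named too. In each role family the most read member and the one with the largest log2 ratio in each direction were also named. Of the other pathway unigenes, the 2 most read per hormone were named, and the rest were picked after their values were seen, to describe the steps of the pathway. The ARF members outside this rule were also named after their values were seen. None of the 50196 RefSeq genes of H. brasiliensis matched a unigene identifier. The qRT-PCR results were not analysed here.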

Additional observations from a re-analysis of the deposited data

How the results depend on the processing

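No paired analysis was possible because each clone has 1 library. Of the 68 members, 38 were higher in PR107 and 30 in CATAS8-79. These counts were 20 and 18 with unigenes of at least 500 bp, 13 and 12 at a 4-fold threshold and 24 and 18 with the Nr text alone. With the Swissprot text alone 23 were higher in PR107. With Swissprot text alone the abscisic acid majority turned to CATAS8-79 (1 against 2), as it did at 4-fold (0 against 2). With unigene numbers below 40000, a setting chosen after seeing the data, it was 25. Of the 67 members past the call rule, 17 and 3 passed the exact test of edgeR at an assumed biological coefficient of variation of 0.2 and 0.4. The log2 ratio of the auxin sum was 0.19 with RPKM summed, -1.11 as the median of members, -0.15 without the most read member and 0.033 with numbers below 40000. That of abscisic acid was 0.77, 1.09 and 0.19 under the first 3 of these settings, the median for cytokinin was 2.32, and that of brassinosteroid was -0.62, 1.30, 0.76 and -0.52. Among families, the BAK1-like sum turned to 1.05 without its most read member, and the ARF sum to -1.11 as a median and -0.062 without its most read member. The sum of the O-glucosyltransferases turned to -0.38 with RPKM and to -2.37 with numbers below 40000. The causes were not tested, apart from the smaller number of unigenes that a filter leaves. The size of each median given is set in part by the rule's fold threshold. TMM and median-ratio scaling moved log2 ratios by -0.05 and -0.03 and turned no member's direction. Removing organism names changed no count. Depth limits the unigenes with 3 or fewer reads in one clone most, since their intervals span several log2 units.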
